A study of Canis lupus familiaris with 10 samples.

Results

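The constitutive proteasome genes were taken as all gene symbols of the deposited table that start with PSMA, PSMB, PSMC, PSMD, PSME, PSMF or PSMG, without the immunoproteasome genes PSMB8, PSMB9 and PSMB10. This rule, which uses gene names and no measured value, gave 45 of the 23266 symbols. They were examined in archival skin tumors of privately owned dogs with canine cutaneous histiocytoma (CCH), a benign tumor of the Langerhans cell lineage that regresses by itself. Each of the 10 formalin-fixed, paraffin-embedded (FFPE) tumors gave 1 library of QuantSeq 3′ RNA sequencing. It yields a single fragment close to the end of each transcript, so that read counts need not be divided by transcript length. The labels place 5 tumors in group 1 of the staging of Cockerell and Slauson (early CCH) and 5 in group 3 (late CCH), and they call the late tumors lymphocyte enriched. The labels name no treatment. The early dogs were 0.5 to 5 years old where an age was given (4 of 5), and the late dogs were 1.5 to 9 years old. Dogs of 4 breeds were in the early group and dogs of 5 breeds in the late group. Male dogs made up 3 of 5 early and 4 of 5 late dogs, and the sex of 1 early dog was not stated. Whole tumor sections were used after the surrounding tissue had been removed, so each library holds the RNA of tumor cells, infiltrating leukocytes and stroma together.

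The proteasome degrades proteins that carry ubiquitin chains. Its 20S core is a barrel of stacked rings, with alpha subunits (PSMA genes) in the outer rings, which gate the entry, and beta subunits (PSMB genes) in the inner rings, of which PSMB5, PSMB6 and PSMB7 cut proteins. The 19S cap holds ATPases (PSMC genes), which unfold substrates, and non-ATPase subunits (PSMD genes), which recognize and remove ubiquitin. Activators (PSME genes) can take the place of the cap, PSMF1 is an inhibitor, and PSMG genes with some PSMD genes encode chaperones of assembly. Under interferon, PSMB8, PSMB9 and PSMB10 replace PSMB5, PSMB6 and PSMB7 in newly built cores, and the activators PSME1 and PSME2 are induced as well, which favors peptides for presentation on MHC class I molecules. The symbol rule also took in PSMB11, a beta subunit known from the thymus, and PSMC3IP, a recombination factor without a role in the proteasome.

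The libraries held between 2973125 and 4439709 reads assigned to genes, and the RNA quality measure DV200 (percentage of fragments over 200 nucleotides) was 64.5 to 71.2% in early and 71.2 to 75.8% in late CCH. No RNA extraction batch of the study held tumors of both stages, so batch and stage cannot be told apart. Summed over 12 T cell markers, the normalized read count was 361 to 2890 in the early and 4425 to 6841 in the late libraries, and 11 of the 12 markers rose in late CCH after BH adjustment in limma (7 with edgeR, and 7 without early library 5, late library 4 or late library 5). Langerhans and dendritic cell markers summed to 931 to 2780 in early and 770 to 1220 in late CCH, and of 7 tested, 3 fell (CD1A8, FLT3 and BATF3) and 1 rose (CCR7). B cell markers summed to 47.2 to 203 in early and 391 to 2269 in late CCH (3 of 5 rose), macrophage markers to 1133 to 8872 and 5038 to 9998 (2 of 7 rose), and keratinocyte markers to 905 to 16053 and 676 to 8142 (1 of 8 fell with limma, 0 with edgeR). Of the macrophage markers, edgeR called 1 higher (MSR1), and DESeq2 called 2 higher and 1 lower (MRC1). In such mixed tissue, fewer cells of a type and less RNA per cell cannot be told apart. For 15 of the 45 genes another expressed gene lies within 2 kb in a more recent dog assembly, among them PSME2, PSMG1 and PSMG2, and the same holds for PSMB8 and PSMB9 (both TAP1) and PSMB10 (CTRL and LCAT). Since reads were counted up to 2 kb downstream of a gene, the part of such neighbors in the values was not tested.

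All 45 genes reached a normalized read count (reads divided by a size factor of the library) of at least 10 in at least 5 libraries and were tested among 12397 genes. Together they took 0.513, 0.477, 0.515, 0.475 and 0.444% of the reads in the early libraries and 0.495, 0.542, 0.465, 0.465 and 0.536% in the late libraries. These shares overlapped, with means of 0.485% ± 0.030 in early and 0.500% ± 0.037 in late CCH (SD, n = 5 each). Their summed normalized read count also overlapped, at 16032 ± 759 in early and 15555 ± 1047 in late CCH (SD). The direction of the difference in means thus depended on the scaling. The mean level of a gene over the 10 libraries ranged from 13.4 for PSMB11 and 15.3 for PSMC3IP to 1113 for PSMB1 and 1244 for PSMA7, with a median of 282 against 89.2 for all genes tested.

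The share of proteasome genes that differed between the stages was near or below that of all genes tested. The genes called after BH adjustment went in both directions. The study set its thresholds at 0.05 for the p-value after Benjamini-Yekutieli (BY) adjustment and at -1 and 1 for the log2 fold change (log2FC). Its calls used log2FC from DESeq2 with shrinkage and late CCH as the baseline. Here log2FC is late minus early, without shrinkage, and in limma that of the normalized read count + 1. Of the 45 genes, 0 passed both thresholds in limma. The background among all genes tested was 1.06% higher and 1.11% lower in late CCH. Tests with edgeR and DESeq2 on the recovered reads also called 0 with these thresholds, and 14 of the 45 genes had an unadjusted limma p of at most 0.05, a share of 31.1% beside 30.9% of all genes. With Benjamini-Hochberg (BH) adjustment over all genes and no fold threshold, 1 gene was higher in late CCH (PSME2) and 4 were lower (PSMA5, PSMB5, PSMD6 and PSMG1), against a background of 7.92% higher and 7.69% lower. The 5 genes make up 11.1% of the members, and the background of both directions is 15.6%. Scaling by the column total in place of the deposited size factors gave 3 genes higher (PSMD11, PSME1 and PSME2) and 2 lower (PSMB5 and PSMD6), and it moved the share of higher calls among all genes called after BH adjustment from 50.7 to 64.3%. Late values lay above every early value for 1 gene (PSME1; background 5.91%) and below every early value for 4 genes (PSMB5, PSMD6, PSMG1 and PSMG2; background 6.05%).

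The median log2FC of the 45 genes was -0.17, beside -0.0037 for all genes, and the middle of the distribution ran from -0.41 to 0.20. A log2FC under 0.5 in size was found in 31 genes (68.9%, beside 58.5% of all genes). The 95% confidence interval lay within -1 and 1, that is within a 2-fold change either way, for 34 genes (75.6%, beside 5580 of the 12397 genes tested). The SD of a proteasome gene among libraries of the same stage had a median of 0.24 on the log2 scale, and that of all genes 0.45, but proteasome genes were also more abundant.

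**Figure D1:**
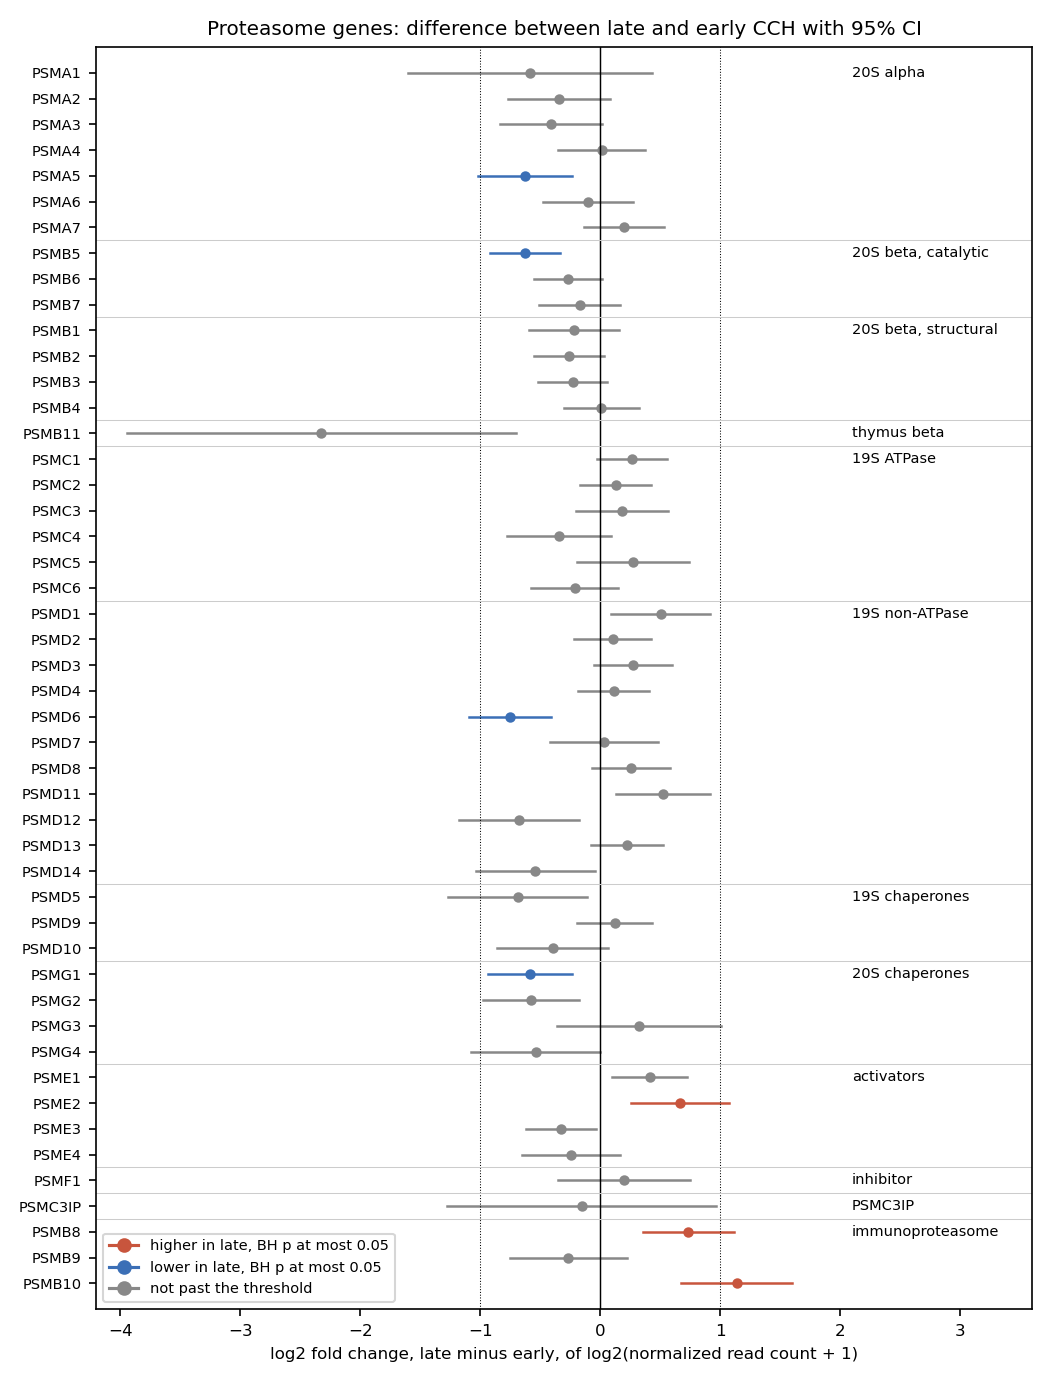
Log2FC (late minus early, horizontal axis, log2 of normalized read count + 1) with 95% confidence intervals from limma for the 45 constitutive proteasome genes and the 3 immunoproteasome genes, ordered by role. Blue marks the genes that were lower in late CCH at a BH-adjusted p of at most 0.05 (PSMA5, PSMB5, PSMD6 and PSMG1), red those that were higher (PSME2, PSMB8 and PSMB10), and dotted lines mark a log2FC of -1 and 1; the estimates of all constitutive genes except PSMB11 lie between these lines.

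**Figure D2:**
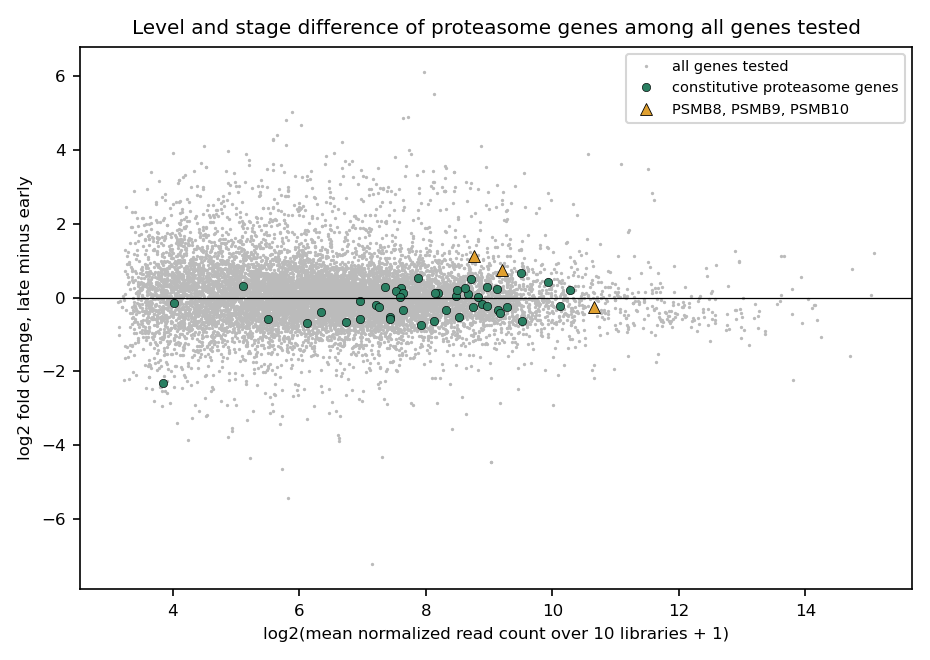
Log2FC (vertical axis, late minus early) against mean level (horizontal axis, log2 of the mean normalized read count over 10 libraries + 1) for the 12397 genes tested (gray), the 45 constitutive proteasome genes (green) and PSMB8, PSMB9 and PSMB10 (orange triangles). Most constitutive genes sit in a narrow band around 0 at medium to high levels, PSMB11, PSMC3IP, PSMG3 and PSMA1 are at low levels, and PSMB11 lies apart at a log2FC of -2.32.

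In the alpha ring of the 20S core, PSMA5 was the gene that fell in late CCH, and the other 6 genes did not pass the test. PSMA5 read 327, 327, 368, 302 and 346 in the early and 179, 207, 162, 248 and 312 in the late libraries. Only late library 5 reached into the early range, and the other 4 late libraries lay below every early one. The log2FC was -0.63 ± 0.18 (SE, BH-adjusted p from limma = 0.0348), a level 35.2% lower. This call was lost in 8 of the 10 fits that each left out 1 library, all except those without early library 4 or late library 5, with log2FC values of -0.76 to -0.52. It held in 8 of 11 other settings of scaling, filter and test. Scaling by the column total, leaving out the filter and edgeR lost it. PSMA7, the most abundant alpha gene, was at 1153 ± 144 in early and 1335 ± 221 in late CCH (SD, n = 5 each; log2FC 0.20, BH-adjusted p from limma = 0.401). PSMA1 had a low level and a wide interval, with a log2FC of -0.58 and a 95% interval of -1.60 to 0.43. The log2FC was below 0 in 5 of the 7 alpha genes (71.4%, beside 50.2% of all genes), with a median of -0.34. PSMA8, a testis form, was not among the gene symbols of the deposited table.

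Of the 3 catalytic beta subunits, PSMB5 fell in late CCH. PSMB5, which carries the chymotrypsin-like activity, read 957, 1010, 720, 807 and 954 in early and 580, 644, 548, 502 and 594 in late CCH. The stages did not overlap, and the lowest early library was above the highest late library. The mean was 889 ± 121 in early and 574 ± 53 in late CCH, with a log2FC of -0.63 ± 0.14 (SE, BH-adjusted p from limma = 0.0102, BY-adjusted p = 0.102), a level 35.2% lower. PSMB5 kept its call in all 10 fits with 1 library left out and in all 11 other settings of scaling, filter and test. PSMB6, of caspase-like activity, was at 468 ± 45 in early and 389 ± 42 in late CCH (log2FC -0.27, BH-adjusted p from limma = 0.188). PSMB7, of trypsin-like activity, was at 499.8 ± 63.2 and 446 ± 82 (log2FC -0.17, BH-adjusted p from limma = 0.494).

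The structural beta subunits, which complete the inner rings without cutting, did not pass the test in any of 4 genes. PSMB2 had the lowest log2FC with -0.26 and PSMB4 the highest with 0.01, and the sign for PSMB4 changed with the scaling, since TMM gave -0.0019. PSMB1 and PSMB3 had log2FC values of -0.22 and -0.23. Over all 14 subunits of the 20S core, 11 (78.6%) had a log2FC below 0, beside 50.2% of all genes. With BH adjustment in limma 2 (14.3%) were called lower, beside the 7.69% of all genes, and 0 were called higher. In both directions together the share was 14.3%, beside 15.6% of all genes. At an unadjusted limma p of at most 0.05, 0 of the 14 were higher and 2 were lower (14.3%, beside 30.9% of all genes). After BH adjustment, edgeR and DESeq2 also called 0 higher.

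PSMB11 had the lowest log2FC of the 45 genes but was close to the detection limit. It read 37.1, 14.9, 17.2, 8.66 and 31.1 in early and 2.98, 10.5, 10.7, 0 and 1.05 in late CCH. Early library 4 lay within the late range, and the other 4 early libraries lay above every late library. The total behind these values was 114 reads in early and 26 reads in late CCH, and the upper limit for a library without any read (3 reads) was worth 2.36 to 3.22 on the normalized scale. The log2FC of -2.32 ± 0.75 (SE) did not pass (BH-adjusted p from limma = 0.0534), while DESeq2 called it with an adjusted p of 0.0311. It was also called with library weights, with a pseudocount of 5 and in 3 of the 10 fits with 1 library left out.

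**Figure D3:**
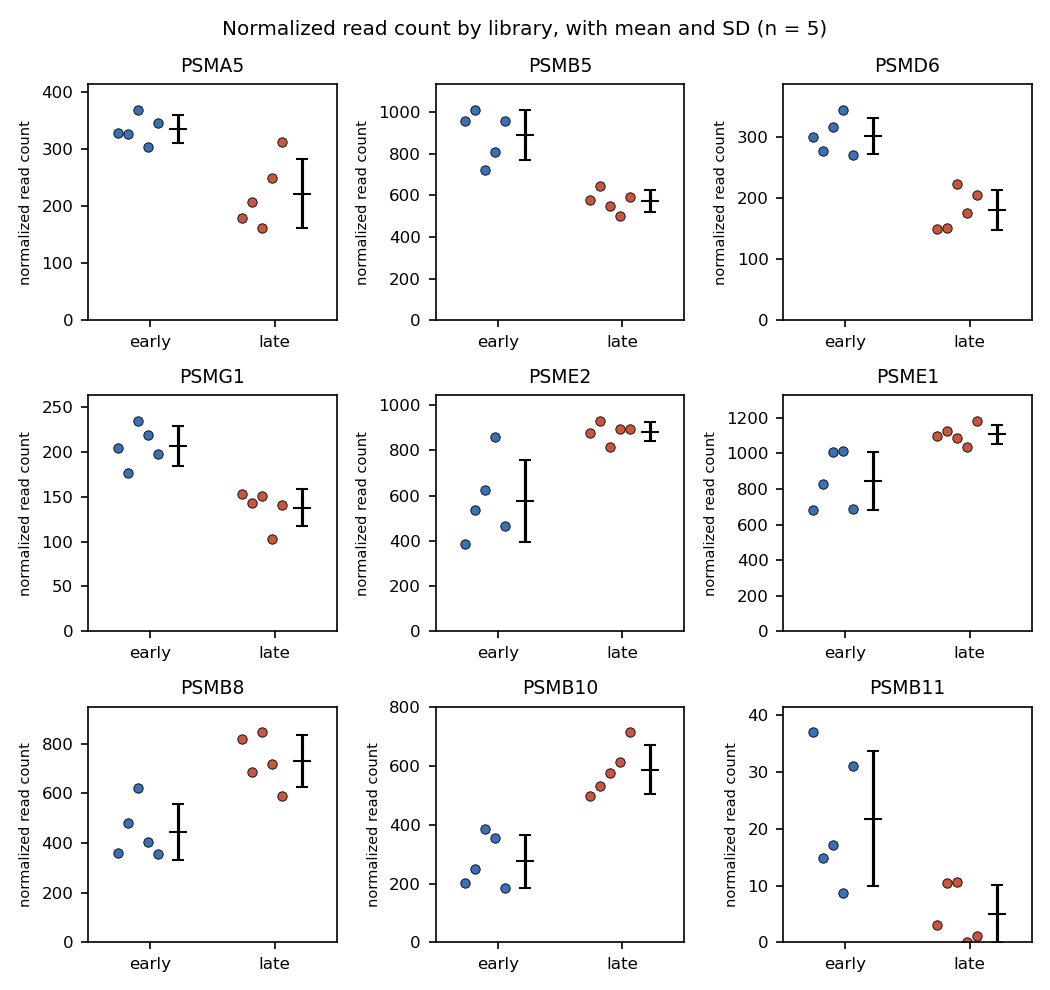
Normalized read count (vertical axis, linear and starting at 0) of 9 proteasome genes in each early (blue) and late (red) library, with the mean and SD of the 5 libraries of a stage as black bars. For PSMB5, PSMD6 and PSMG1 all late points lie below the early points, for PSME1 and PSMB10 all lie above, and for PSMA5, PSME2, PSMB8 and PSMB11 single libraries reach into the range of the other stage.

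In the 19S cap, 1 gene of 17 passed the test, PSMD6 (5.88%, beside 15.6% of all genes). Most of the others had a log2FC slightly above 0. The ATPase ring (PSMC1 to PSMC6) held 0 genes past either threshold with limma, edgeR or DESeq2 and 0 with an unadjusted limma p of at most 0.05. Its highest log2FC was 0.27 for PSMC5 and its lowest -0.34 for PSMC4, and all 6 intervals lay within -1 and 1. PSMC4 was the most abundant ATPase gene, at 624 ± 84 in early and 505 ± 141 in late CCH.

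Among the 11 non-ATPase subunits, PSMD6 fell, and 8 genes had a log2FC above 0 without passing the test. PSMD6, a structural subunit of the lid, the part of the cap that removes ubiquitin, read 301, 277, 317, 345 and 272 in early and 150, 151, 223, 176 and 205 in late CCH. Every late library lay below every early library. The log2FC was -0.75 ± 0.16 (SE, BH-adjusted p from limma = 0.00865, BY-adjusted p = 0.0865), a level 40.5% lower, and the call remained in all 10 fits with 1 library left out (log2FC -0.83 to -0.69) and in all 11 other settings. PSMD11, a lid subunit, had the highest log2FC with 0.52 ± 0.18 (SE, BH-adjusted p from limma = 0.0690). PSMD11 read 207, 196, 223, 194 and 137 in early and 217, 361, 254, 292 and 254 in late CCH, so that 4 late libraries lay above every early one. PSMD11 was called in 3 of the 11 other settings and in 0 of the 10 fits with 1 library left out. The settings that called it were DESeq2, library weights and scaling by the column total. PSMD1, a scaffold of the cap, was similar in size with 0.50 ± 0.19 (SE, BH-adjusted p from limma = 0.0892).

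Of the other lid subunits, PSMD12 and PSMD14 had values below 0. PSMD12 was at 130 ± 35 in early and 81 ± 22 in late CCH (log2FC -0.67, BH-adjusted p from limma = 0.0660). PSMD14, the deubiquitinase of the lid, was at 201 ± 26 and 144 ± 48 (log2FC -0.54, BH-adjusted p from limma = 0.127). PSMD7, the partner of PSMD14, had a log2FC of 0.03, and its sign depended on single libraries, falling below 0 without early library 4, late library 2 or late library 5. PSMD3, PSMD8 and PSMD13, also subunits of the lid, had log2FC values of 0.28, 0.26 and 0.22. The remaining cap genes PSMD2 and PSMD4 both had 0.11.

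Of the 17 genes of the ATPase ring and the non-ATPase subunits together, 12 had a log2FC above 0 (29.4% below 0, beside 50.2% of all genes). Their median was 0.13, whereas the median of the 14 core genes was -0.24. The ratio of the summed core level to the summed cap level in a library was 1.54, 1.48, 1.44, 1.54 and 1.51 in early and 1.18, 1.28, 1.23, 1.24 and 1.24 in late CCH. The stages did not overlap, with means of 1.50 ± 0.046 and 1.23 ± 0.034 (SD, n = 5 each). Without PSMA7 and PSMB1, the 2 most abundant core genes, the ratio was 1.03 ± 0.066 in early and 0.787 ± 0.032 in late CCH, again without overlap. With each gene weighted equally, the mean log2 level of the core minus that of the cap was 0.54 to 0.68 in early and 0.24 to 0.47 in late CCH. This ratio was chosen after its values were seen and was not tested. Beside it, 10 proliferation markers summed to 2769 to 4018 in early and 1571 to 3504 in late CCH, with 0 of 10 called by limma, edgeR or DESeq2 after BH adjustment and 1 at an unadjusted limma p of at most 0.05. Their part in the ratio was not tested, nor was that of the T cells.

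**Figure D4:**
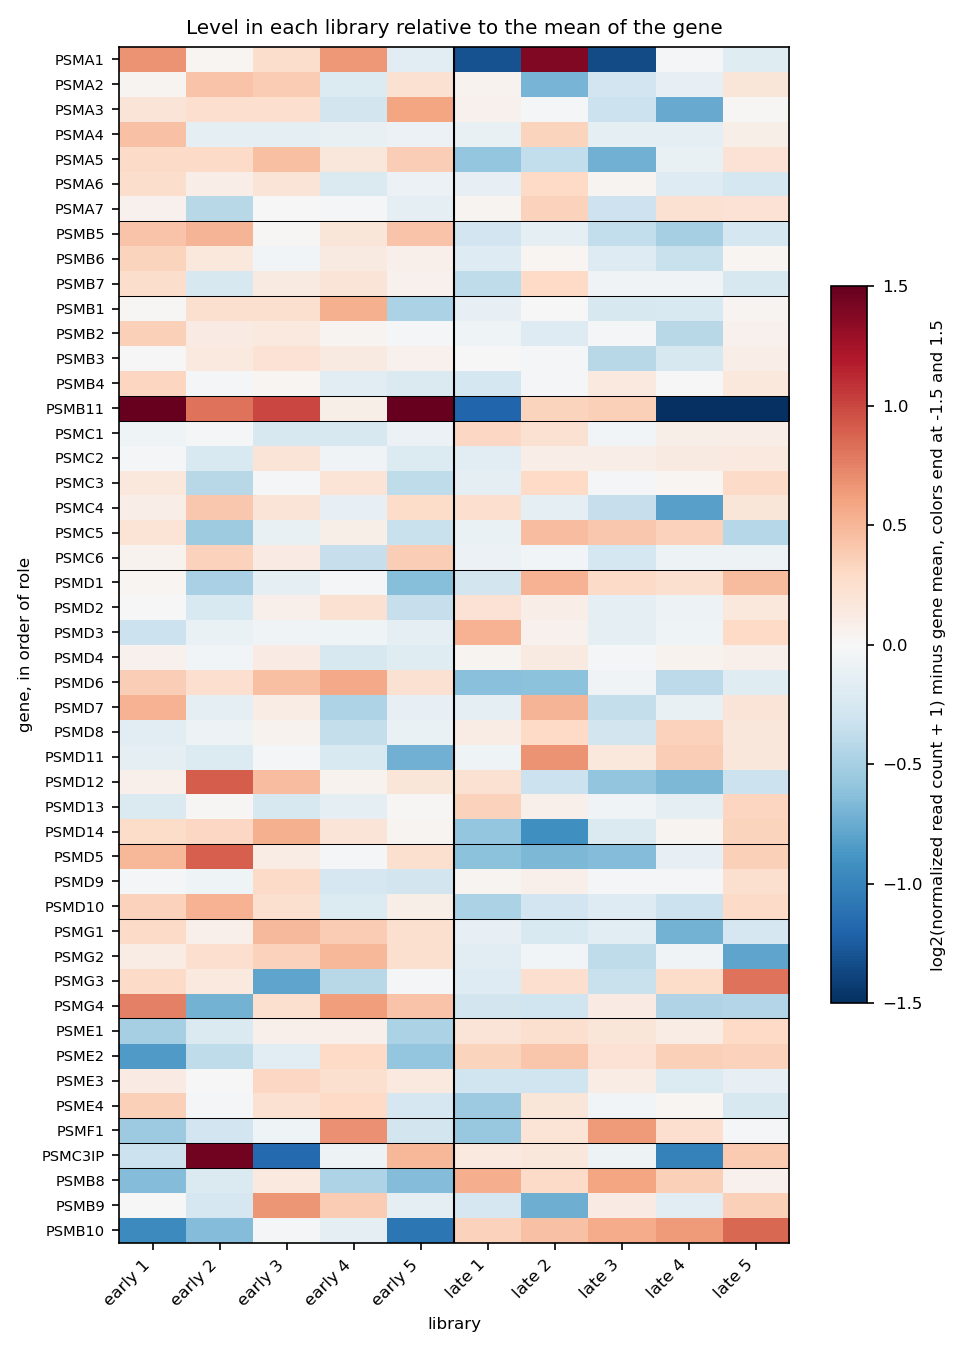
Level of each gene in each library relative to the mean of the gene (color, log2 of normalized read count + 1, ending at -1.5 and 1.5), with genes in rows by role and the 5 early libraries left of the vertical line. The core genes are mostly redder in early CCH, PSME1, PSME2, PSMB8 and PSMB10 are redder in late CCH, and PSMA1, PSMB11 and PSMC3IP, at low levels, vary most among libraries of the same stage.

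Of the 4 chaperones that build the core, PSMG1 fell in late CCH. It read 204, 176, 234, 219 and 198 in early and 153, 143, 150, 102 and 141 in late CCH, without overlap. PSMG1 fell by 0.59 ± 0.16 on the log2 scale (SE, BH-adjusted p from limma = 0.0295), a level 33.3% lower. The call was lost without early library 1, 3 or 5 or late library 2 or 4, at log2FC values of -0.64 to -0.48 over all 10 fits. It held in 10 of the 11 other settings and was lost with scaling by the column total. PSMG2, with which PSMG1 pairs to assemble the alpha ring, read 129, 143, 153, 170 and 143 in early and 106, 117, 92.0, 116 and 69.2 in late CCH, again without overlap. The log2FC of PSMG2 was -0.58 ± 0.18 (SE, BH-adjusted p from limma = 0.0516). PSMG2 was called in 4 of the 11 other settings, among them DESeq2, and in 0 of the 10 fits with 1 library left out.

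Neither gene of the second pair of core chaperones passed the test. PSMG4 had a log2FC of -0.54 (BH-adjusted p from limma = 0.162) with overlapping stages, and PSMG3 had 0.32 ± 0.32 (SE, BH-adjusted p from limma = 0.527) at a mean level of only 33.4. Among the chaperones of the cap, PSMD5 was at 84 ± 23 in early and 53 ± 19 in late CCH (log2FC -0.69, BH-adjusted p from limma = 0.101). PSMD10 and PSMD9 had log2FC values of -0.40 and 0.12. Of all 7 chaperone genes, 5 had a log2FC below 0 (71.4%, beside 50.2% of all genes). After BH adjustment in limma 1 was called (14.3%, beside 15.6% of all genes).

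Of the 4 activators, PSME2 rose in late CCH, and PSME1, also known to be induced by interferon, was higher without overlap but did not pass the test. PSME2 read 388, 537, 626, 859 and 468 in early and 879, 931, 815, 897 and 893 in late CCH. Of the late libraries, 4 lay above every early library, and late library 3 lay below early library 4. PSME2 rose with a log2FC of 0.67 ± 0.19 (SE, BH-adjusted p from limma = 0.0319), a level 58.9% higher. This call held without early library 3 or 4 or late library 3 and was lost without any of the other 7, with adjusted p-values of up to 0.0794 and log2FC values of 0.54 to 0.83.

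PSME1, which forms the same ring with PSME2, read 681, 827, 1007, 1014 and 688 in early and 1100, 1128, 1085, 1037 and 1183 in late CCH. All late libraries lay above the early ones, yet the log2FC of 0.41 ± 0.15 (SE) did not pass (BH-adjusted p from limma = 0.0733). In both genes the late libraries lay closer together than the early ones, with an SD of 42.5 against 181 for PSME2 and of 54.2 against 163 for PSME1. PSME3, the nuclear activator of the same family, was at 353 ± 29 in early and 282 ± 35 in late CCH (log2FC -0.33, BH-adjusted p from limma = 0.117). PSME4, an activator linked to the degradation of histones, had a log2FC of -0.24 (BH-adjusted p from limma = 0.409). The inhibitor PSMF1 ranged from 235 to 551 in early and from 231 to 533 in late CCH, a spread much wider than its log2FC of 0.20 (BH-adjusted p from limma = 0.640). PSMC3IP, which has no role in the proteasome, had a log2FC of -0.15 (BH-adjusted p from limma = 0.871) at a mean level of 15.3.

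The balance between inducible and constitutive subunits was compared as a ratio within each library, which does not depend on the scaling of the library. PSMB8 read 358, 481, 621, 406 and 356 in early and 816, 685, 847, 717 and 588 in late CCH (log2FC 0.74 ± 0.18, SE; BH-adjusted p from limma = 0.0163). PSMB10 read 203, 250, 386, 355 and 185 in early and 499, 532, 577, 614 and 717 in late CCH (log2FC 1.14 ± 0.21, SE; BH-adjusted p from limma = 0.00561, BY-adjusted p = 0.0562). Both rose after BH adjustment, and PSMB10 did not overlap between the stages, whereas late library 5 of PSMB8 lay within the early range.

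The ratio of PSMB8 to PSMB5, which share a position in the ring, was 0.518 ± 0.201 in early and 1.29 ± 0.24 in late CCH. On the log2 scale the difference was 1.36 ± 0.25 (SE), and all 5 late libraries lay above the early ones (exact two-sided permutation p = 0.00794, adjusted over 5 ratios 0.00992). The ratio of PSMB10 to PSMB7 went from 0.557 ± 0.176 to 1.35 ± 0.31, a log2 difference of 1.31 ± 0.27 (SE), with the same exact permutation p. This p is the smallest that 5 against 5 libraries allow. PSMB5, PSMB8 and PSMB10 were also called as single genes in the same libraries, so these ratios are not separate evidence. In late CCH the inducible gene had the higher normalized read count of the pair in 4 of 5 libraries for both ratios, and in early CCH in 0 of 5.

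For PSMB9 and PSMB6 no difference passed the test. PSMB9 read 1577, 1317, 2479, 2045 and 1413 in early and 1320, 945, 1705, 1396 and 2006 in late CCH, so that the stages overlapped (log2FC -0.26 ± 0.23, SE; BH-adjusted p from limma = 0.463). The ratio to PSMB6 averaged 3.84 ± 1.35 in early CCH and 3.81 ± 1.01 in late CCH, with a log2 difference of 0.0021 ± 0.29 (SE, exact two-sided permutation p = 0.992). PSMB9 thus had a higher normalized read count than PSMB6 in all 10 libraries, also in the early ones.

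Among the activators, the ratio of PSME1 to PSME3 was 2.38 ± 0.37 in early and 3.96 ± 0.49 in late CCH (log2 difference 0.74 ± 0.13, SE; exact two-sided permutation p = 0.00794, adjusted 0.00992). The ratio of PSME2 to PSME3 was 1.62 ± 0.45 and 3.18 ± 0.48 (log2 difference 1.00 ± 0.20, SE, with the same exact permutation p). For both ratios the late libraries did not overlap with the early ones. In the same libraries PSME2 was also called as a single gene, and PSME1 did not overlap between the stages. These activator ratios are therefore not separate evidence either. Among single genes, late values lay above every early value for 5.91% and below for 6.05% of all genes tested. No such share was taken for ratios of other gene pairs, and the adjustment covers only the 5 ratios. Beside these results, 10 interferon response markers summed to 1634 to 7611 in early and 8447 to 9619 in late CCH, and 4 of the 10 rose after BH adjustment in limma. That count was 2 with edgeR and 2 without early library 4, early library 5, late library 2, late library 4 or late library 5. TAP1, the neighbor of PSMB8 and PSMB9, had a log2FC of 0.64 (BH-adjusted p from limma = 0.0460). The summed T cell and B cell markers did not overlap between the stages either. The part of these cells, of macrophages, of neighboring genes and of interferon in the ratios was not tested.

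**Figure D5:**
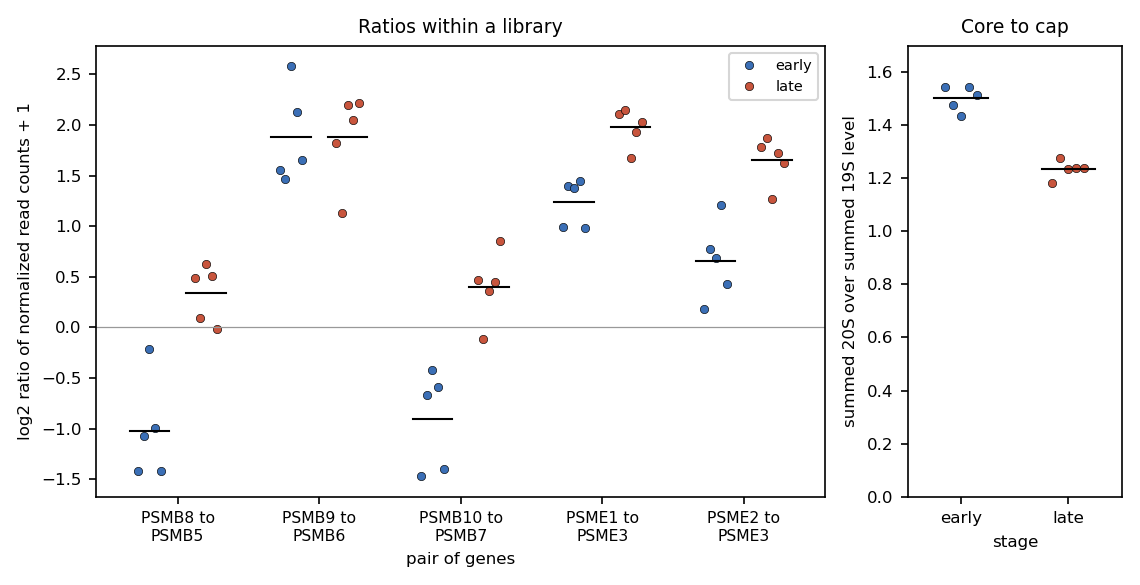
Left, log2 ratio of normalized read counts + 1 within a library (vertical axis) for 5 pairs of genes, with points for early (blue) and late (red) libraries and a line at the mean of 5. Right, summed level of the 14 core genes over that of the 17 cap genes (vertical axis, linear from 0), with a mean of 1.50 in early and 1.23 in late CCH; late points lie apart from early points in every comparison shown except PSMB9 to PSMB6.

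Among genes that work with the proteasome but carry other names, the shares that differed were also near or below those of all genes tested. Of 39 genes in 7 lists, 37 were in the table and 36 were tested, of which 1 rose and 1 fell with BH adjustment in limma (5.56%, beside 15.6% of all genes) and 0 were called with the thresholds of the study by limma, edgeR or DESeq2. At an unadjusted p of at most 0.05 there were 3 higher and 7 lower (27.8%, beside 30.9% of all genes), and the median log2FC was -0.06. NFE2L1, the transcription factor that raises proteasome genes when proteasome activity is low, was at 158 ± 11 in early and 228 ± 38 in late CCH (log2FC 0.51 ± 0.15, SE; BH-adjusted p from limma = 0.0424), without overlap. UCHL5, a deubiquitinase bound to the cap, was at 339 ± 27 in early and 199.8 ± 48.7 in late CCH (log2FC -0.79 ± 0.18, SE; BH-adjusted p from limma = 0.0120), also without overlap. UCHL5 kept its call in all 10 fits with 1 library left out, and NFE2L1 lost its call in 7 of them, all except those without early library 4, late library 1 or late library 5.

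The other genes of these lists did not pass the test in limma. NGLY1, which processes NFE2L1, had the lowest log2FC of the 36 with -0.95 (BH-adjusted p from limma = 0.0577). Among 7 further components and chaperones, PAAF1 was highest with 0.44 and AKIRIN2, which brings proteasomes into the nucleus, lowest with -0.50. Among the 5 shuttle factors tested, which carry ubiquitinated proteins to the cap, UBQLN4 was lowest with -0.63.

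The ubiquitin genes, their activating enzymes and p97 with its cofactors held 0 calls of 14 genes in limma, edgeR and DESeq2 and 0 at an unadjusted p of at most 0.05. The log2FC was -0.09 for RPS27A, the lowest of the ubiquitin genes. It was 0.40 for UBA7 and -0.21 for UBA3 among the activating enzymes, and 0.22 for VCP, which is p97 itself, and -0.16 for its cofactor NPLOC4. Of the deubiquitinases and ligase, UBE3C and USP14 had log2FC values of -0.16 and -0.15.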

How the data were processed

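RNA of 10 FFPE tumors was extracted with the PureLink FFPE kit and made into QuantSeq 3′ FWD libraries with the protocol for low-quality RNA. The authors trimmed reads with Cutadapt, aligned them with STAR to CanFam3.1 and counted them with featureCounts on RefSeq genes, then a further time with genes extended by 2 kb downstream. Reads with several mapping places were shared evenly, which gives fractions of reads, and how these became whole reads, tool versions and the strand setting are not given in the sources used here. The deposited values are a normalized signal, read counts divided by a size factor per library. All of the 166096 values above 0 were whole multiples of 1 read (tolerance 0.001 reads), so reads could be recovered for edgeR and DESeq2. Only 10 of the 21 value columns belong to samples analysed here, and the other 11 entered no step. Column names give the stage but not the sample, and libraries are numbered 1 to 5 only as names.

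Genes that reached 10 in 5 or more libraries entered the test with limma 3.58.1 (mean-variance trend, R 4.3.3) on log2(value + 1), a scale that understates changes of low genes, with all 10 libraries and no covariate. Calls used BY adjustment with a log2FC of 1, as in the study, and BH adjustment without a fold threshold, both over all 12397 genes. Ratios of 5 gene pairs were compared by exact two-sided permutation over 252 assignments. Alternatives were edgeR 4.0.16, DESeq2 1.42.0, other scalings, filters, pseudocounts and weights, and leaving out each library. The scripts were tested on simulated counts. The libraries come from different dogs. SE and 95% intervals carry the spread between tumors, and limits from 3 reads cover counting error only. Named genes were those called, the highest and lowest log2FC of each role or list, the catalytic subunits, activators and inhibitor. Members and lists were chosen with earlier results of these data known. Gene neighbors came from the RefSeq table of UU_Cfam_GSD_1.0, in which 48 of 48 symbols were found. Values of a few genes of the other lists are not reported here.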

Additional observations from a re-analysis of the deposited data

Results flagged for a closer look

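For each gene and stage, the distance of the highest or lowest of the 5 libraries from the next one was set against the whole range, and a share above 0.71 (Dixon's critical value for 5) was marked. Of 134 groups of proteasome genes and summed levels, 8 were marked, and chance marks about 1 in 20, or 6.7 of 134.

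Among the core genes, late library 2 stood apart for PSMA1, at 102 against 14.5 to 37.8 in the other late libraries (gap over range 0.733). Early library 1 stood apart for PSMA4, at 256 against 170 to 178 (gap over range 0.907). The summed level of the structural beta subunits was 2300 in early library 5 and 2959 to 3162 in the other early libraries (gap over range 0.764).

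Among the ATPases of the cap, PSMC2 was at 251.6 in late library 1 against 299 to 311 (gap over range 0.808), and PSMC6 was at 122 in late library 3 against 138 to 143 (gap over range 0.783). Among the chaperones, PSMG1 was at 102 in late library 4 against 141 to 153 (gap over range 0.754), and PSMG4 was at 380 in late library 3 against 256 to 288 (gap over range 0.736). The chaperones of the cap summed to 518 in late library 5 against 390 to 408 in the other late libraries (gap over range 0.861). The marked libraries were of both stages, with late library 3 marked for 2 genes and no other library marked more than once.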

How the results depend on the processing

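The count of 0 proteasome genes past the thresholds of the study was the same in all alternatives run. After BH adjustment, 1 gene higher became 3 with scaling by the column total, 3 with library weights, 2 with DESeq2 and 0 to 2 with 1 library left out, and 4 genes lower became 2 with scaling by the column total, 6 with library weights, 6 with DESeq2, 3 with edgeR and 2 to 5 with 1 library left out. Over all genes, the 131 calls higher in late CCH became 217 with library weights, 81 with edgeR, 480 with DESeq2, 685 with BH adjustment and 18 to 144 with 1 library left out. The 138 calls lower became 330 with DESeq2, 436 with BH adjustment and 29 to 153 with 1 library left out. The causes were not tested. Among the members, signs reversed for the log2FC of PSMB4 (-0.0019 with TMM, -0.015 with library weights) and, with 1 library left out, in some fits of PSMB4 (range -0.041 to 0.094), PSMA4 (-0.067 to 0.12), PSMD7 (-0.090 to 0.17) and PSMC3IP (-0.46 to 0.19). The log2 ratio of PSMB9 to PSMB6 lay between -0.10 and 0.19 with 1 library left out, those of PSMB8 to PSMB5 between 1.26 and 1.56, PSMB10 to PSMB7 between 1.17 and 1.44, PSME1 to PSME3 between 0.68 and 0.82 and PSME2 to PSME3 between 0.88 and 1.13, and their exact p-values, bounded by the number of assignments, say nothing of stability. No paired analysis was possible because early and late tumors come from different dogs and their columns carry no replicate number. A fit with DV200 as covariate was not run, since columns cannot be linked to single samples. Depth limits PSMB11 and PSMC3IP most, with under 100 reads in at least 1 stage each.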
